A study of Mus musculus with 16 samples.

Results

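The genes described here are 10 costimulatory receptors and adaptors of T cells, taken by gene symbol from the 55536 annotated genes in the count table. They are the TNF receptor family members Tnfrsf4 (OX40), Tnfrsf9 (4-1BB), Tnfrsf18 (GITR), Tnfrsf1b (TNFR2) and Cd27, the immunoglobulin family members Cd28 and Icos, the ligand Cd40lg, and the adaptors Traf2 and Traf3. All 10 passed the filter on low counts and were tested among 16650 genes. The RNA came from CD8+ T cells of OT-1 Tg C57BL/6J mice, whose transgenic receptor recognizes the ovalbumin peptide SIINFEKL. The cells had been electroporated with Cas9 and either a scrambled guide (Control gRNA, 8 libraries) or a guide against Tardbp (Tardbp gRNA, 8 libraries), which encodes the RNA-binding protein TDP-43. They were transferred into C57BL/6J hosts with T cells of their own, and all recipients of both groups were given antigen with agonist antibodies to OX40 and 4-1BB, so each group had been stimulated through Tnfrsf4 and Tnfrsf9 themselves. CD8+ T cells were sorted from spleen and lymph nodes after 4 days per the labels, where the study's methods give a slightly shorter time. Per those methods the sort took cells with the congenic markers of the donor, to high purity. The study's results text names stimulation and RNA-seq of the purified cells. It does not make clear whether the sequenced cells were stimulated again after the sort. The study used mice of both sexes and gives their ages as ranges over all of its mice, not by group. The Tardbp gRNA cells were a pool of edited cells and not a clone.

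A T cell that meets antigen needs further signals to expand and survive. CD28 and ICOS bind ligands of the B7 family and recruit kinases such as PI3K. OX40, 4-1BB, GITR, TNFR2 and CD27 have no enzyme activity and instead gather TRAF adaptors, which carry ubiquitin ligases to the receptor and activate NF-kB. TRAF3 restrains the non-canonical arm of that pathway until TRAF2 and the cIAP proteins remove it.

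The Tardbp transcript was at 110 to 147 CPM (counts per 1000000, scaled by the TMM method) with Tardbp gRNA and at 172 to 207 CPM with Control gRNA, with no overlap. A cut in the coding sequence need not remove the transcript, so this level is a check of the labels and not of the protein. Counts in annotated genes ran from 73649630 to 93893357 per Control gRNA library and from 56016533 to 94801105 per Tardbp gRNA library. The RNA concentration before dilution was 34.9 to 197.1 for Control gRNA and 10.1 to 24.0 for Tardbp gRNA, in a unit not given, so the guide and the RNA yield cannot be told apart. Earlier results of these data showed a component that separates libraries numbered 1 to 3 from those numbered 4 to 8 in both groups. The defining genes of CD8 T cells were present in all libraries, and all 6 of that list were called higher with Tardbp gRNA (summed level 3408 to 4271 CPM in Control gRNA and 5211 to 6697 CPM in Tardbp gRNA). Of 3 markers of CD4 and regulatory T cells, Cd4 was at most 0.601 CPM and Foxp3 at most 0.498 CPM. The third, Ikzf2, was at 3.64 to 14.8 CPM in Control gRNA and 7.51 to 23.9 CPM in Tardbp gRNA and was called higher. The summed level of 5 myeloid markers was 23.6 to 43.7 CPM in Control gRNA and 31.2 to 89.8 CPM in Tardbp gRNA, with 2 of 5 called higher. That of 4 red cell markers was 0.174 to 8.03 CPM and 3.46 to 87.5 CPM, with 2 of 4 called higher. The part of these other cells in the results below was not tested.

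Of the 10 genes, 5 rose with Tardbp gRNA (Cd27, Tnfrsf18, Tnfrsf9, Icos and Cd28), 1 fell (Tnfrsf1b), and Tnfrsf4, Cd40lg, Traf2 and Traf3 did not pass the test. Genes were called at an adjusted p under 0.05 in edgeR's quasi-likelihood test over all genes. With that rule 46.7% of all tested genes were called, 23.5% higher and 23.3% lower, so calling 6 of 10 genes is not far from the background. The split of all calls depended on scaling: 3906 were higher and 3877 lower with TMM, against 4881 and 3135 with library size alone and 4865 and 3086 with upper-quartile factors. The 10 genes were split 5 to 1 under each of these. The median log2 fold change was 0.04 over the 10 genes and 0.05 over all tested genes. The CPM of the groups did not overlap for 2 of the 10 (Cd27 and Tnfrsf1b), against 16.9% of all tested genes. In bulk RNA, a change in the share of cells that use a gene and a change in RNA per cell cannot be told apart. Per the study's text the 8 libraries of a group were from separate recipients, and p-values measure the spread between them.

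**Figure D1:**
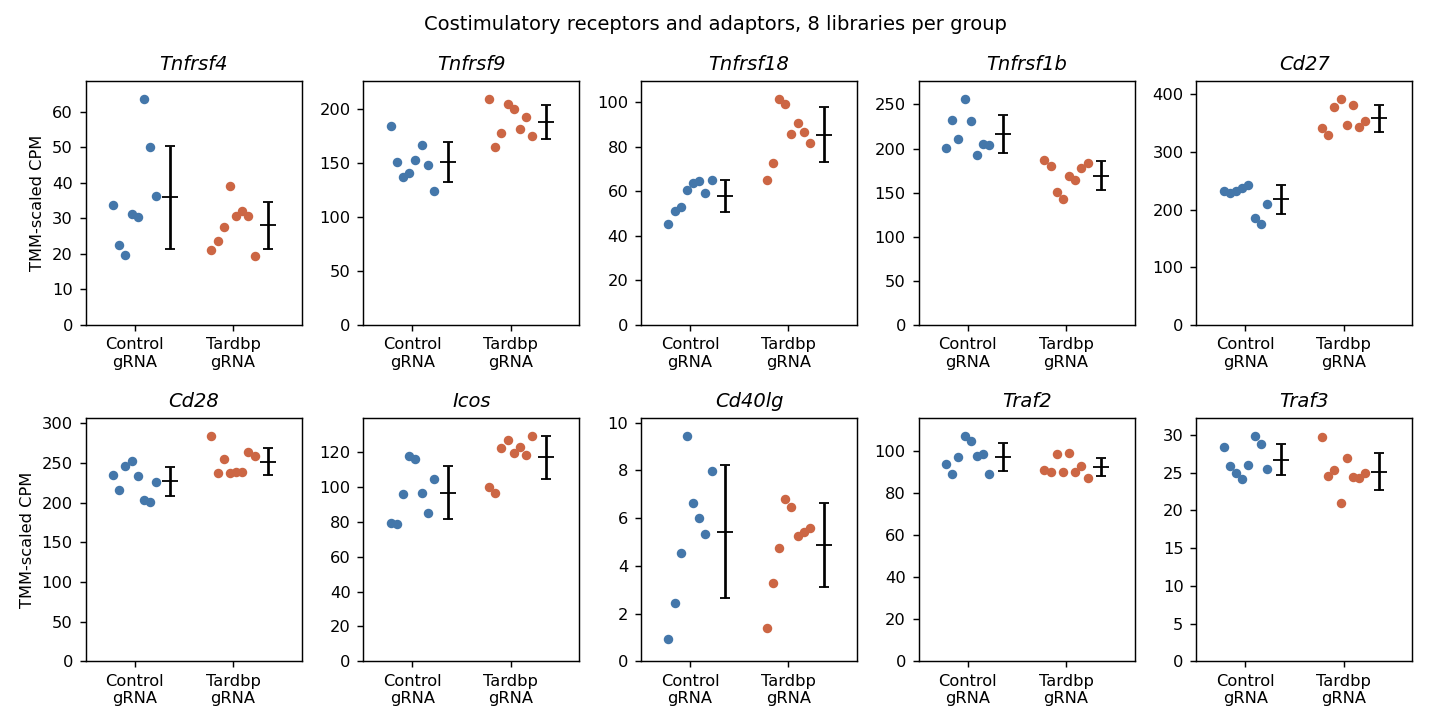
CPM (TMM-scaled, linear axis from 0) of each of the 10 genes in 8 Control gRNA (blue) and 8 Tardbp gRNA (orange) libraries, in library order, with the mean ± SD at the right of each group. The groups separate for Cd27 (highest Control gRNA library 243, lowest Tardbp gRNA library 329) and for Tnfrsf1b (193 and 187), and overlap for the other genes.

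Tnfrsf9 is the receptor 4-1BB, which is induced by antigen and was bound by 1 of the agonist antibodies. It lies on the plus strand of GRCm38 chr4:150914562-150946102 (ENSMUSG00000028965.13). Its Control gRNA libraries ranged from 124 to 184 CPM with a median of 149.7, and its Tardbp gRNA libraries from 165 to 209 CPM with a median of 187. All 8 Tardbp gRNA libraries were above the Control gRNA median and 4 were above every Control gRNA library. Control gRNA library 1 was the highest of its group, and the groups overlapped. The means were 151 ± 18.4 and 188 ± 15.8 CPM (SD, n = 8 each), a rise of 0.32 on the log2 scale (SE 0.07, adjusted p = 0.00101). In libraries numbered 1 to 3 alone the log2 fold change was 0.19 (adjusted p = 0.416) and in those numbered 4 to 8 it was 0.38 (adjusted p = 0.00116). With the RNA concentration (log2) as a covariate it was 0.67 (SE 0.12, adjusted p = 0.00213).

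Among the 10 genes, Tnfrsf9 also had the nodes that changed most in the deposited splicing table, which covers alternative 3′ ends as well as splicing. The deposited splicing table gives a Psi, an estimate of the share of transcripts that use a node (an exon or part of one). Psi is given once for each group, so it has no replicate error. The 10 genes had 78 nodes there, and 2 nodes had a probability above 0.9 together with a change in Psi above 0.1, both in the last exon of Tnfrsf9. Both are typed in the deposit as alternative 3′ ends of that exon, so their Psi values are not independent, and no exon-skipping node passed. Over all genes 0.473% of 125520 nodes passed. The file names the groups by letters only, and these were assigned from the direction that the study states for an Ikzf1 exon. As a check, the 145 core exon nodes past both thresholds were compared with shares rebuilt from the transcript counts of each library. The rebuilt share differed between the groups at 88 of them, and 65 of these moved the same way as Psi. Where it differed by at least 0.02 (71 nodes), 54 did.

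The Tnfrsf9 node that reaches the far 3′ end (chr4:150945233-150946102, 870 bases) went from a Control gRNA Psi of 0.646 to a Tardbp gRNA Psi of 0.5005. The node that ends nearer the stop (chr4:150944773-150945067, 295 bases) had 0.3503 and 0.486. By this measure the far node was lower by 14.6 percentage points and the near node higher by 13.6. The annotated transcript that ends at the near node, Tnfrsf9-202, held means of 1.57% (Control gRNA) and 4.23% (Tardbp gRNA) of the gene's counts. In a search for the polyadenylation letters AATAAA or ATTAAA, a match lay 26 bases before the far end and none was found before the near end. Whether the near end is used as a 3′ end was not tested. Another node, the first exon of the transcript Tnfrsf9-205 (chr4:150927999-150928085), had a Psi of 0.813 and 0.907, a difference of 9.41 points that passed the probability but not the threshold on size. An alternative first exon (chr4:150925306-150925425) had 0.862 and 0.883, so Psi of these first exons is not a share of all Tnfrsf9 transcripts.

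The stretch of the far Tnfrsf9 segment richest in TG is shown because TDP-43 is known to bind runs of UG in RNA. The capitals mark overlapping matches to TGTGTG on the transcript strand.
Tnfrsf9, far segment, GRCm38 chr4:150945510-150945539 (+): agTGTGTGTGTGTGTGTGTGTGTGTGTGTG
The far segment held 12 overlapping matches, all of them in these 30 bases, and the near segment 2. Of 40159 annotated protein-coding transcripts, 39.6% had at least 1 match in their last 870 bases and 1.13% had 12 or more. A match describes the letters and is not a binding site.

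The 135-base exon of Tnfrsf9 (chr4:150935422-150935556, exon 7 of the 8 of Tnfrsf9-205) lies within the coding sequence and its length is a multiple of 3. It holds the longest run of uncharged residues of the protein, 29 of 256 residues, which spans the membrane, and a 4-1BB without a membrane segment is known as a soluble form. The exon is shown with the codons of that run in capitals.
Tnfrsf9 exon, GRCm38 chr4:150935422-150935556 (+): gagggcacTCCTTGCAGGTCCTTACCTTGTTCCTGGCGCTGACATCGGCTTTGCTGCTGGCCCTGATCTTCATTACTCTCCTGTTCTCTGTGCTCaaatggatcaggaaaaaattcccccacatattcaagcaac
Psi of this exon came to 0.406 with Control gRNA and to 0.386 with Tardbp gRNA, the lowest of the 53 core exon nodes of the 10 genes, of which 50 had a Psi over 0.9 in both groups. The largest Psi difference of a core exon node of the 10 genes was 2.49 points, in Tnfrsf1b.

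Because Psi had no replicates, 3 shares were rebuilt for each library from the deposited transcript counts divided by transcript length. They were chosen after the Psi values were seen. The share of Tnfrsf9 transcripts that hold the 135-base exon had a range of 79.0 to 85.4% with a median of 83.9% in Control gRNA, and of 75.4 to 83.1% with a median of 79.9% in Tardbp gRNA. These levels stand far above the Psi of the same exon, and which estimate is nearer the RNA was not tested. The means were 83.3 ± 2.17% and 79.9 ± 3.05% (SD, n = 8 each), a difference of -3.41 points (two-sided exact permutation test p = 0.0228, 0.0685 adjusted over the 3 shares). In libraries numbered 4 to 8 alone it was -2.24 points (exact permutation p = 0.190).

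The share that ends at the far 3′ end was 85.1 ± 3.49% in Control gRNA and 83.5 ± 6.56% in Tardbp gRNA (SD, n = 8 each, exact permutation p = 0.568, 0.568 adjusted). The shift of -14.6 points that Psi gave for the far end was thus not seen in the per-library shares, which differed by -1.53 points. Their spread with Tardbp gRNA ran from 73.9 to 92.6%, and in both groups their level stood above the Psi of the far node. Which estimate is nearer the RNA was not tested. The share that starts in the first exon of Tnfrsf9-205 was 52.9 ± 5.89% and 56.4 ± 13.8% (exact permutation p = 0.517, 0.568 adjusted). The Tardbp gRNA libraries of that share ranged from 40.8 to 73.9%, around the whole Control gRNA range of 45.1 to 60.9%. These levels stand below the Psi of that first exon in each group (0.813 and 0.907).

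**Figure D2:**
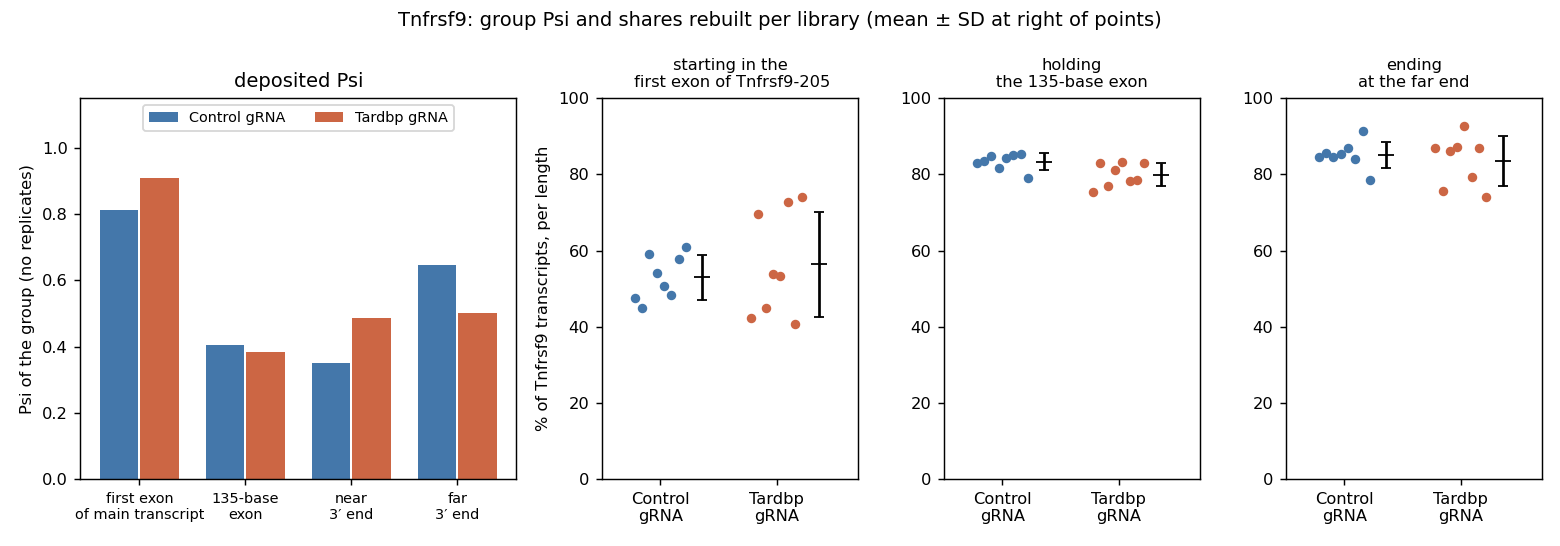
Left, the deposited Psi of 4 Tnfrsf9 nodes, 1 value for each group with no error. Right, the percent of Tnfrsf9 transcripts per length in each library that start in the first exon of Tnfrsf9-205, hold the 135-base exon or end at the far 3′ end, with the mean ± SD. The far end went from 0.646 to 0.5005 in Psi, while the per-library shares of the far end had means of 85.1% and 83.5%.

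Of the 9 annotated Tnfrsf9 transcripts, 2 were called higher. Tnfrsf9-205, the most counted, had means of 86.6 ± 7.96 CPM in Control gRNA and 113 ± 25.6 CPM in Tardbp gRNA (log2 fold change 0.39, SE 0.12, adjusted p = 0.0384). Tnfrsf9-202, which lacks the 135-base exon and uses the near 3′ end, ranged from 0.823 to 8.63 CPM with a median of 1.395 and from 2.01 to 16.1 CPM with a median of 6.24. Its log2 fold change was 1.78 (SE 0.57, adjusted p = 0.0417), and the groups overlapped. Tnfrsf9-201 was given a count of 0 in 3 Tardbp gRNA libraries and in no Control gRNA library, so the estimated split of this gene's reads between its transcripts varied from library to library.

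RefSeq promoter entries (GRCm38.p6) matched 7 of the 10 genes, with 2 entries for Tnfrsf9. Both are shown because they belong to alternative first exons. The 250 bases before each start are printed, with matches in capitals. Both strands were searched for the NF-kB consensus and for the AP-1 letters TGANTCA. The TATA box was searched for as TATAAA.
Tnfrsf9, first start, GRCm38 chr4:150919905-150920154 (+): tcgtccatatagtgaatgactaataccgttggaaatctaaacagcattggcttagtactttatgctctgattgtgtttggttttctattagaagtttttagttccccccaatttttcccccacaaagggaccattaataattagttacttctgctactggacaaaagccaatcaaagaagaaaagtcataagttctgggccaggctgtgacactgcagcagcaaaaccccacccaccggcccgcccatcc
Tnfrsf9, start of Tnfrsf9-205, GRCm38 chr4:150927749-150927998 (+): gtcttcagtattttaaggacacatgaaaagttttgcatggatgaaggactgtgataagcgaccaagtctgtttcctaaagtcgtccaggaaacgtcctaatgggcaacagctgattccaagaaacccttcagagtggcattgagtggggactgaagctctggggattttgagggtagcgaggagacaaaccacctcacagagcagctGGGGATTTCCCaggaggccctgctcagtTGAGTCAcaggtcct
The window before Tnfrsf9-205 held 2 overlapping NF-kB matches at 43 and 42 bases before the start and an AP-1 match at 15 bases before it, and the earlier window held none of the 3 motifs. Over all 32851 promoter windows of 300 bases, 8.46% held the NF-kB consensus, 7.81% the AP-1 letters and 13.6% the TATA letters. Among the 8 windows of the 10 genes, the only other match was an NF-kB match of Traf3. These are descriptions of letters and say nothing about binding in these cells.

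Tnfrsf4 is the receptor OX40, the target of the other agonist antibody. It lies at chr4:156013843-156016612 (+, ENSMUSG00000029075.6), 9551 bases before Tnfrsf18. Control gRNA libraries ranged from 19.6 to 63.6 CPM with a median of 32.4, and Tardbp gRNA libraries from 19.3 to 39.1 CPM with a median of 29.1. The Tardbp gRNA libraries thus sat inside the Control gRNA range but for the lowest, and the widest spread was among Control gRNA libraries, where library 6 was at 63.6 and library 7 at 50.1 CPM. The means were 35.9 ± 14.5 and 28.0 ± 6.55 CPM (SD, n = 8 each; log2 fold change -0.36, SE 0.21, 95% interval -0.80 to 0.08, adjusted p = 0.168). Without Control gRNA library 6 the log2 fold change was -0.19, and with the RNA concentration as a covariate it was 0.07 (SE 0.45). The interval holds no change as well as a fall of 0.80 on the log2 scale.

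Tnfrsf18 is GITR, a receptor found on regulatory and activated T cells, at chr4:156026164-156028895 (+, ENSMUSG00000041954.18). Control gRNA libraries ranged from 45.2 to 65.2 CPM (median 59.9) and Tardbp gRNA libraries from 64.9 to 101 CPM (median 86.0). Of the 8 Tardbp gRNA libraries 7 were above every Control gRNA library, and library 1 was the exception, by less than 1 CPM. The means were 57.8 ± 7.25 and 85.3 ± 12.4 CPM (SD, n = 8 each), a rise of 0.56 on the log2 scale (SE 0.09, adjusted p = 7.58e-05). The gene was called in libraries numbered 1 to 3 (0.64, adjusted p = 0.0450) and 4 to 8 (0.50, adjusted p = 3.27e-05), but not with the RNA concentration as a covariate (0.48, adjusted p = 0.116). So the neighbours Tnfrsf4 and Tnfrsf18 had log2 fold changes of opposite sign, of which only that of Tnfrsf18 passed the test.

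Cd27, a receptor for CD70 that naive and memory T cells carry, had the largest change of the 10. It lies at chr6:125232622-125237010 (-, ENSMUSG00000030336.14). Control gRNA libraries ranged from 175 to 243 CPM with a median of 230.04, and Tardbp gRNA libraries from 329 to 392 CPM with a median of 351. Every Tardbp gRNA library was above every Control gRNA library. The means were 218 ± 25.4 and 358 ± 22.7 CPM (SD, n = 8 each), 1.65-fold higher (log2 fold change 0.72, SE 0.07, adjusted p = 1.47e-07). The two-sided exact permutation p of 0.000155 is the smallest that 8 against 8 libraries can give. Cd27 was called in libraries 1 to 3 (0.57, adjusted p = 0.0169), in libraries 4 to 8 (0.79, adjusted p = 2.34e-05) and with the RNA concentration as a covariate (0.71, adjusted p = 0.00331).

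Tnfrsf1b, which encodes TNFR2, was the only called gene of the 10 that fell. It lies at chr4:145213463-145246870 (-, ENSMUSG00000028599.10). Control gRNA libraries ranged from 193 to 256 CPM with a median of 208, and Tardbp gRNA libraries from 143 to 187 CPM with a median of 173. The groups did not overlap, and the lowest Control gRNA library lay just above the highest Tardbp gRNA library. The means were 217 ± 21.2 and 169 ± 15.9 CPM (SD, n = 8 each; log2 fold change -0.35, SE 0.07, adjusted p = 0.000212, exact permutation p = 0.000155). The value was -0.34 in libraries 1 to 3 (adjusted p = 0.0935), -0.38 in libraries 4 to 8 (adjusted p = 0.00283) and -0.38 with the RNA concentration as a covariate (adjusted p = 0.0763).

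Cd28 and Icos lie in 1 stretch of chr1 (60716800-60773359, +, ENSMUSG00000026012.2, and 60977927-61000320, +, ENSMUSG00000026009.14). Cd28 is carried by naive T cells, and Icos is induced after activation. Cd28 ranged from 201 to 252 CPM (median 229.98) in Control gRNA and from 237 to 284 CPM (median 247) in Tardbp gRNA, with 4 Tardbp gRNA libraries above every Control gRNA library. Icos ranged from 78.6 to 118 CPM (median 96.1) and from 96.5 to 129 CPM (median 121), with 6 above every Control gRNA library. Both overlapped between groups and both rose by small amounts. The means of Cd28 were 227 ± 18.7 and 252 ± 16.9 CPM (SD, n = 8 each; log2 fold change 0.15, SE 0.05, adjusted p = 0.0254). Those of Icos were 96.6 ± 15.3 and 117 ± 12.2 CPM (SD, n = 8 each; log2 fold change 0.27, SE 0.09, adjusted p = 0.0178). The call of Cd28 was lost without any 1 of Control gRNA libraries 6, 7 and 8 or Tardbp gRNA libraries 1, 5, 7 and 8 (adjusted p up to 0.117, without Tardbp gRNA library 1), and that of Icos without Tardbp gRNA library 4 (0.0520) or 8 (0.0556). Cd28 was not called in libraries 1 to 3 (0.13, adjusted p = 0.440) or in libraries 4 to 8 (0.14, adjusted p = 0.0902), and Icos was called in libraries 4 to 8 (0.24, adjusted p = 0.0265) but not in libraries 1 to 3 (0.30, adjusted p = 0.158). With the RNA concentration as a covariate neither was called (adjusted p = 0.519 and 0.669).

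Cd40lg encodes CD40 ligand, a product chiefly of CD4+ T cells. It lies at chrX:57212143-57224042 (+, ENSMUSG00000031132.1). It was the least counted of the 10, with 66 to 747 counts per library. Control gRNA libraries ranged from 0.938 to 9.44 CPM (median 5.67) and Tardbp gRNA libraries from 1.39 to 6.82 CPM (median 5.34). Library 1 was the lowest in each group, and the ranges overlapped almost whole (log2 fold change -0.16, SE 0.36, 95% interval -0.90 to 0.59, adjusted p = 0.751). A rise of the size seen for Cd27 lies outside this interval.

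Traf2 and Traf3 encode adaptors that act between the TNF family receptors and NF-kB. Traf2 (chr2:25517982-25546940, -, ENSMUSG00000026942.13) ranged from 89.1 to 107 CPM (median 97.5) in Control gRNA and from 87.4 to 99.1 CPM (median 90.7) in Tardbp gRNA. Traf3 (chr12:111166370-111267153, +, ENSMUSG00000021277.16) ranged from 24.2 to 29.9 CPM (median 25.9) and from 20.99 to 29.7 CPM (median 24.7). Both had overlapping groups, and both were held to narrow intervals. The log2 fold change of Traf2 was -0.07 (SE 0.05, 95% interval -0.17 to 0.02, adjusted p = 0.196), and Traf2 was called lower without Control gRNA library 8 (-0.12, adjusted p = 0.0360) or without Tardbp gRNA library 5 (-0.12, adjusted p = 0.0420). That of Traf3 was -0.09 (SE 0.07, 95% interval -0.23 to 0.05, adjusted p = 0.304).

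**Figure D3:**
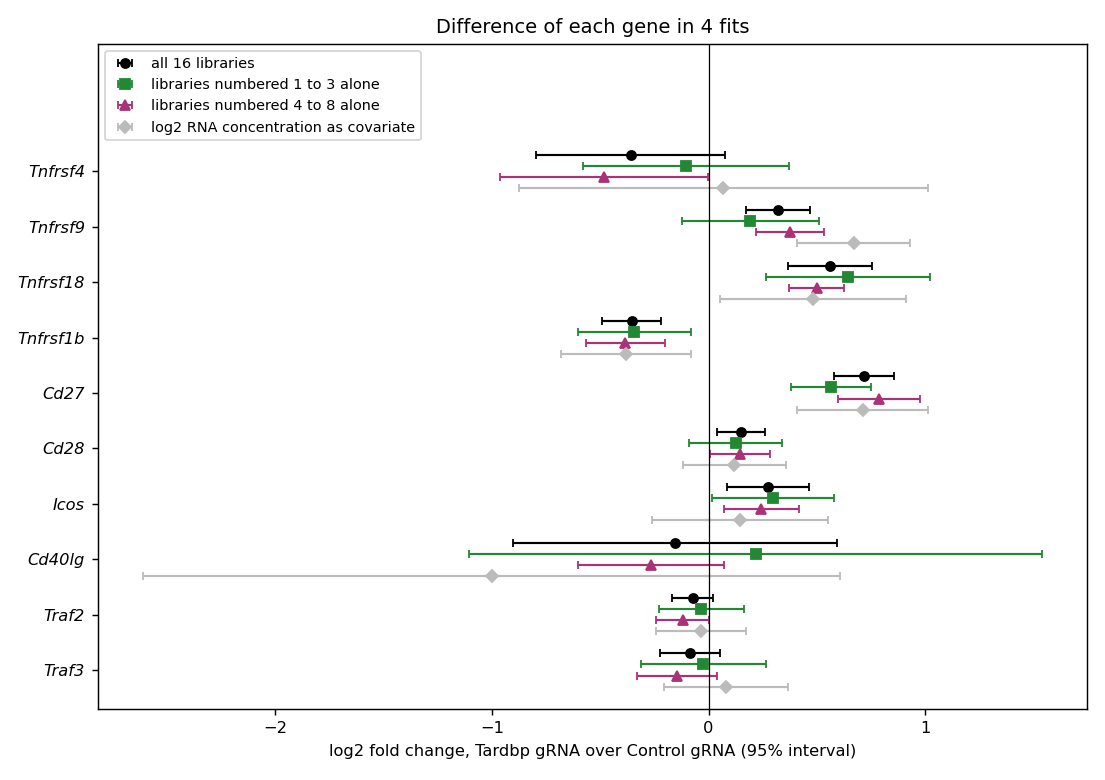
Log2 fold change (Tardbp gRNA over Control gRNA) of each gene with its 95% interval from edgeR, over all 16 libraries, over libraries numbered 1 to 3 or 4 to 8 alone, and with the RNA concentration (log2) as a covariate. Cd27 lies right of 0 in all 4 fits (0.57 to 0.79), and the interval of Cd40lg is the widest over all 16 libraries (-0.90 to 0.59).

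No gene of the 10 had a group effect that differed between libraries 1 to 3 and 4 to 8 (adjusted p = 0.9997 for each, lowest unadjusted p = 0.161, for Cd27). A deposited table also gives each library a letter M or F under the heading sex, M for 3 Control gRNA and 5 Tardbp gRNA libraries. The letter did not separate the libraries by Xist, which is transcribed from the inactive X chromosome (9.82 to 69.0 CPM for M and 12.3 to 41.9 CPM for F), or by the Y-linked Ddx3y (18.3 to 36.1 CPM for M and 28.5 to 39.0 CPM for F), so it is used here only as a deposited letter. No gene of the 10 had an effect that differed between these letters (adjusted p = 0.9997 for each), and the lowest unadjusted p was 0.0914, for Tnfrsf1b. Within letter M the log2 fold changes were 0.60 for Cd27, 0.59 for Tnfrsf18, -0.49 for Tnfrsf1b and 0.22 for Tnfrsf9, of which that of Tnfrsf9 was not called (adjusted p = 0.173). Within letter F they were 0.74, 0.51, -0.26 and 0.36, all called. Icos was 0.11 within M (adjusted p = 0.644) and 0.39 within F (adjusted p = 0.00904), and Cd28 was 0.05 (adjusted p = 0.733) and 0.20 (adjusted p = 0.0477).

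To compare the genes with each other, transcript counts were divided by transcript length, summed by gene and scaled to 1000000 in each library. On this scale Cd27 was the most abundant of the 10, at 249 ± 29.0 in Control gRNA and 400.2 ± 18.3 in Tardbp gRNA (SD, n = 8 each). The next levels in Control gRNA were Tnfrsf9 at 127 ± 13.3, Tnfrsf1b at 93.8 ± 10.1, Cd28 at 91.4 ± 8.03, Tnfrsf18 at 84.2 ± 11.2 and Traf2 at 68.5 ± 4.93. Below them came Tnfrsf4 at 56.7 ± 23.1, Icos at 50.3 ± 8.46, Traf3 at 8.23 ± 1.35 and Cd40lg at 7.16 ± 3.65. In Control gRNA the ranges of neighbours in this order overlapped except between Cd27 and Tnfrsf9 and between Icos and Traf3. The order changed with Tardbp gRNA, where Tnfrsf18 (119 ± 15.3) was above Cd28 (98.9 ± 8.25) in 7 of 8 libraries, Cd28 was above Tnfrsf1b (70.3 ± 7.64) in all 8, and Icos (58.7 ± 4.48) was above Tnfrsf4 (42.9 ± 9.25) in all 8. Of the targets of the agonist antibodies, 4-1BB thus had the higher mean level per length than OX40 in each group.

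**Figure D4:**
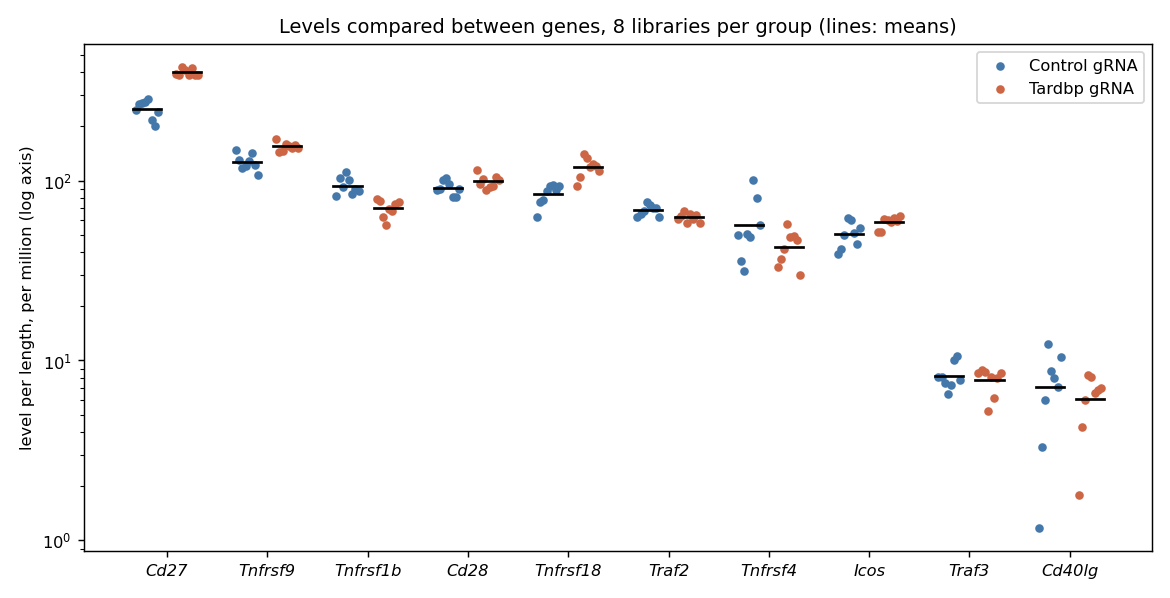
Level per length (transcript counts over transcript length, scaled to 1000000, log axis) of each gene in the 8 libraries of each group, ordered by the Control gRNA mean, with lines at the means. Cd27 stands above the rest in both groups (249 and 400.2), and Traf3 and Cd40lg lie lowest.

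Among the 40 annotated transcripts of the 10 genes, 32 were tested. Of these 10 rose and 1 fell, all in 4 genes. Over all genes 16.6% of 40897 tested transcripts were called. The 5 called transcripts of Cd27 included its main product Cd27-201, at 205 ± 22.6 and 320.2 ± 25.8 CPM (log2 fold change 0.65, SE 0.07, adjusted p = 1.13e-05). They also included the retained-intron transcript Cd27-206, which ranged from 4.798 to 9.61 CPM in Control gRNA and from 14.8 to 23.6 CPM in Tardbp gRNA with no overlap (log2 fold change 1.35, SE 0.14, adjusted p = 8.74e-06). The share of Cd27-206 in Cd27 was 3.35% and 5.39%, a difference of 2.03 points (limma, 95% interval 1.33 to 2.73, adjusted p = 0.00270), and it was the only share of the 10 genes with an adjusted p under 0.05. It did not reach the difference of 0.1 that a call required, which 0.635% of 32777 tested shares reached over all genes. Of the 30 shares tested among the 10 genes 0 were called by limma at that size, and 0 passed that size with an unadjusted p under 0.05 (7 did so with no limit on size).

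The 3 called transcripts of Tnfrsf18 were Tnfrsf18-202, Tnfrsf18-203 and the retained-intron Tnfrsf18-206, with log2 fold changes of 0.66, 0.44 and 0.48. The first was close to the threshold (adjusted p = 0.0489). The called transcript of Tnfrsf1b was Tnfrsf1b-201, which held nearly all of its counts (log2 fold change -0.40, SE 0.07, adjusted p = 0.000637). In Tnfrsf4 the largest share difference of the 10 genes was seen, -8.37 points for the noncoding Tnfrsf4-203 (95% interval -28.9 to 12.1), and it was not called. Tnfrsf4-201, its coding transcript, held 54.4% and 61.7% of the counts. Of the other transcripts with a share of at least 0.1 in their gene, those of Cd28, Icos, Cd40lg, Traf2 and Traf3 were not called.

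The other genes of the pathway were counted in 7 lists chosen by function. Of 9 ligands of these receptors 8 were tested, and 4 were higher, 1 lower and 3 not called (median log2 fold change 0.27, against 0.05 for all tested genes). Cd86 rose by 1.36 (SE 0.14, adjusted p = 3.54e-07), from 3.33 ± 0.807 to 8.54 ± 1.10 CPM. Tnf rose by 0.90 (SE 0.10, adjusted p = 9.67e-07) and Icosl by 0.75 (SE 0.22, adjusted p = 0.00985), while Cd80 fell by 0.96 (SE 0.27, adjusted p = 0.00680). Cd86 and Cd80 are the B7 ligands of CD28 and belong chiefly to antigen-presenting cells. Of the 5 myeloid markers given above 2 were called higher with Tardbp gRNA, Itgam had means of 8.35 CPM in Control gRNA and 5.64 CPM in Tardbp gRNA (not called), and the summed ranges of the groups overlapped. Of the dendritic cell and B cell markers 0 were called. The part of such cells in these ligands was not tested. The ligands of OX40 and 4-1BB did not pass the test (Tnfsf4 0.11, adjusted p = 0.775, and Tnfsf9 -0.13, adjusted p = 0.214). Tnfsf18, the ligand of GITR, was at 0 in all 16 libraries and was not tested.

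Of 23 other receptors of the TNF receptor family 16 were tested, with 5 higher, 3 lower and 8 not called (median 0.19). Tnfrsf8, which encodes CD30, fell by 1.53 (SE 0.30, adjusted p = 0.000423), from 4.73 ± 2.17 to 1.65 ± 0.639 CPM. Tnfrsf21 (DR6) and Tnfrsf22 fell by 0.74 and 0.63. Tnfrsf14 (HVEM), Tnfrsf13b (TACI) and Tnfrsf1a (TNFR1) rose by 0.76, 0.55 and 0.32. The receptors for TNF therefore differed in direction, with Tnfrsf1a called higher and Tnfrsf1b called lower. Of 10 other immunoglobulin family costimulatory receptors 5 were higher, 3 lower and 2 not called (median 0.15). Slamf6 rose by 0.49, Cd2 by 0.49 and Cd244a by 0.46, and Slamf1 fell by 0.81, Cd6 by 0.26 and Cd5 by 0.20 (adjusted p = 0.0326 for Cd244a and 0.0284 for Cd5, which was not called with library size alone, adjusted p = 0.142).

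Downstream of the receptors, 22 adaptors and ubiquitin enzymes were tested, with 8 higher, 4 lower and 10 not called (median 0.08). Traf1, an adaptor of 4-1BB and itself an NF-kB target, rose from 191 ± 17.1 to 267 ± 22.5 CPM (log2 fold change 0.48, SE 0.06, adjusted p = 3.10e-06). Xiap and Tnfaip3, which encodes the deubiquitinase A20, rose by 0.39 and 0.27. Traf6 fell by 0.48, Traf7 by 0.42 and the deubiquitinase gene Cyld by 0.26. So the TRAF genes were split, with Traf1 and Traf5 higher, Traf6 and Traf7 lower, and Traf2, Traf3 and Traf4 not called. Of 12 IKK and NF-kB genes 5 were higher, 0 lower and 7 not called (median 0.12). The count lower was 0 with edgeR, with DESeq2 and at an unadjusted p under 0.05. Of these, 3 encode inhibitors, with Nfkbia higher by 0.77 (SE 0.10, adjusted p = 7.49e-06) and Nfkbie by 0.26, and Relb, a subunit of the non-canonical arm, rose by 0.67 (SE 0.11, adjusted p = 0.000102). Nfkb1 and Nfkb2 were at -0.11 and 0.09 and did not pass the test (adjusted p = 0.367 and 0.475).

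Of 15 genes of CD28 and ICOS signalling 4 were higher, 7 lower and 4 not called (median -0.05). This direction depended on scaling, with 6 higher and 2 lower with library size alone and 6 higher and 3 lower with upper-quartile factors. The kinase gene Pdpk1 fell by 0.32 (SE 0.06, adjusted p = 0.000418), the exchange factor gene Vav1 by 0.26 and the PI3K subunit gene Pik3cd by 0.26 (not called with library size alone, adjusted p = 0.0516), while Pik3ca rose by 0.43, Grap2 by 0.41 and Bcl10 by 0.18. Of 6 survival genes induced by costimulation 3 were higher, 0 lower and 3 not called (median 0.28), and the count lower was again 0 with edgeR, with DESeq2 and at an unadjusted p under 0.05. Mcl1 rose by 0.74 (SE 0.13, adjusted p = 0.000113), Bcl2 by 0.54 (SE 0.09, adjusted p = 0.000106) and Bcl2a1b by 0.42, the last of these a gene with near-identical copies among which reads may be split. With 46.7% of all genes called, none of these counts is set apart from the background by a test here.

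**Figure D5:**
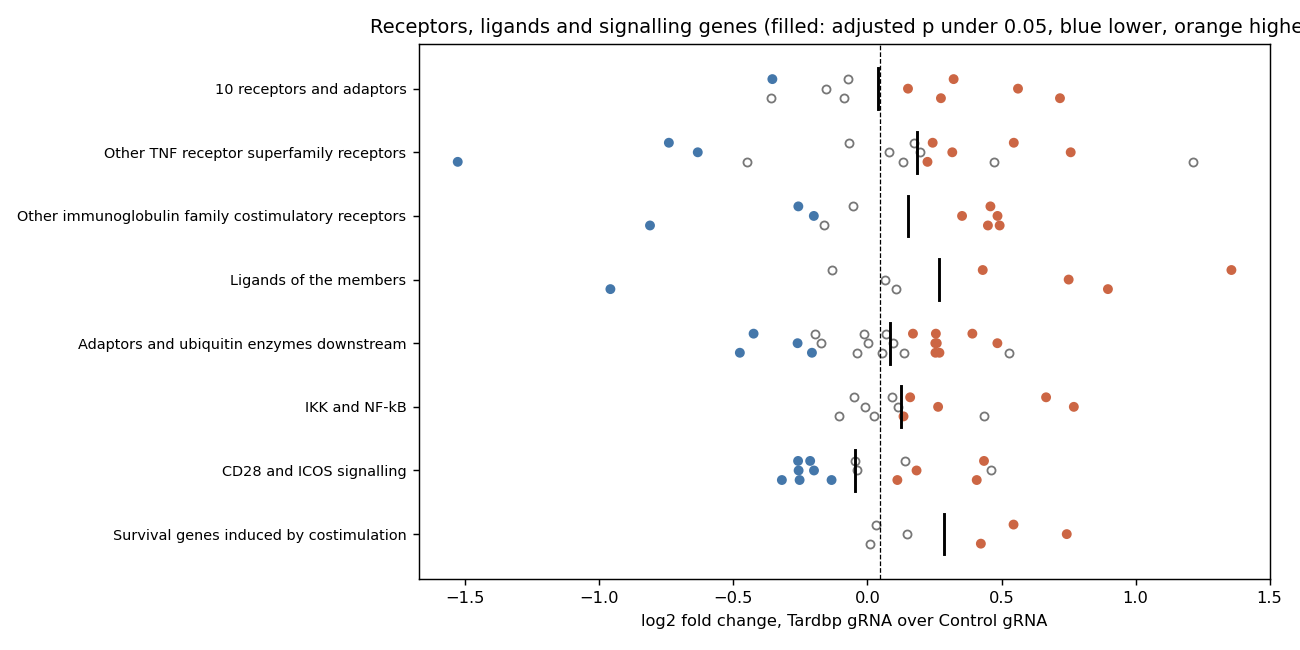
Log2 fold change (Tardbp gRNA over Control gRNA) of each tested gene of the 10 receptors and adaptors and of 7 lists, with black lines at each list's median and a dashed line at the median of all tested genes (0.05). Filled points passed an adjusted p under 0.05, orange higher and blue lower. Both the IKK and NF-kB list and the survival list have filled points right of 0 only.

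Likeness to Tnfrsf4 or Tnfrsf9 was measured on log2 CPM as the deviation from the group mean, so the difference between the guides is left out. Each was compared over the 16 libraries with 9040 genes whose mean log2 CPM reached 3. Closest to Tnfrsf4 were Pnkd (Pearson r = 0.91), Gm14269 (0.91), 9530068E07Rik (0.91), Fkbp1a (0.84) and Bhlhe40 (0.83). Those closest to Tnfrsf9 were Trmt61a (0.85), Morf4l2 (0.81), Mettl16 (0.80), Eif2s1 (0.79) and Eef1e1 (0.79). These are descriptions over the same libraries, which share depth and library number, and they were given no test.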

How the data were processed

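Bulk RNA of sorted CD8+ T cells gave 16 libraries (SMART-Seq v4, then Nextera XT), read in pairs. Per the labels the authors aligned reads to mm10 with HISAT2 2.1.0 and made estimated counts per gene and transcript with StringTie 2.1.0, deposited without normalization. Psi of each group and its probability were deposited as fractions made with Whippet by the authors; the probability, the authors' own comparison, served only as a threshold. The deposited lane table gave a count of read pairs and a score for the RNA concentration. Each count table held 10 columns that matched no sample and were not used, and 0.0836 to 0.132% of counts lay in lines without a gene.

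For genes and transcripts of GENCODE M21 the test was that of edgeR 4.0.16 in R 4.3.3 (quasi-likelihood, TMM, filterByExpr with minimum count 10), and for shares that of limma 3.58.1, each over 8 against 8 libraries with no covariate and Benjamini-Hochberg adjustment over all features. These tests of genes, transcripts and shares between the guides were also run on simulated data. Alternatives were DESeq2 1.42.0, other scalings, filters, blocks, covariates and left-out libraries. The genes and lists were chosen with earlier results of these data known. Named were Tardbp, the 10 genes, in each list the 3 highest and 3 lowest called genes, the 5 genes most like Tnfrsf4 and Tnfrsf9, transcripts with a share of at least 0.1 or called, and nodes past the thresholds. Genes named beyond that rule (Tnfsf4, Tnfsf9, Tnfsf18, Nfkb1, Nfkb2, Traf4, Traf5), the 135-base exon and the 3 Tnfrsf9 shares were added after values were seen. Counts limit precision by sampling error, and the spread between libraries and the estimated split of reads between transcripts limit it as well.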

Additional observations from a re-analysis of the deposited data

How the results depend on the processing

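Over the 10 genes, 6 were called with DESeq2, upper-quartile factors, library size alone, no filter, a mean log2 CPM of at least 3, the letter as a covariate, or the numbers 1 to 3 and 4 to 8 as a block, 5 in libraries 4 to 8 alone and 4 at an adjusted p under 0.01. The count moved to 2 in libraries 1 to 3 alone (fewer samples) and to 2 when the RNA concentration (log2) was a covariate. The concentrations of the groups did not overlap, so this fit cannot separate the guide from the RNA yield. With this covariate the SE of each of the 10 genes grew. For Tnfrsf18 it went from 0.09 to 0.20 (log2 fold change 0.56 and 0.48), and for Icos from 0.09 to 0.19 (0.27 and 0.14). Leaving out each library in turn gave 4 to 6 called genes. The sign turned for Cd40lg in libraries 1 to 3 (0.22), and for Tnfrsf4 (0.067) and Traf3 (0.082) with the concentration; none was called in either fit. With library size alone the median of all genes was 0.12, and with TMM 0.05. Over all tested genes the correlation between same-numbered libraries was low (-0.005 to 0.160), so the numbers were not taken as pairs. Single genes differed in this. With the number as a replicate block the SE was 0.13 for Cd40lg (0.36 without) and 0.05 for Icos (0.09 without). Of the 10 genes only Tnfrsf1b had a larger SE with the block (0.074, against 0.065 without). With the number as a replicate block 6 of the 10 genes were called, 9 of their transcripts (11 without) and 0 shares. The called transcripts fell to 4 in libraries 4 to 8 alone (fewer samples), and the nodes past the thresholds were 2 at a probability over 0.95, 3 at a Psi difference over 0.05 and 0 at a probability over 0.99. Cd40lg was the least counted of the 10, at 66 to 747 counts per library, and the part of depth in its wide interval was not tested.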
